A study of Homo sapiens with 12 samples.

Results

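The expression of 33 genes of cholesterol and fatty acid metabolism was followed in lung adenocarcinoma cells with and without the homeobox transcription factor HOXC6. The 33 genes were taken from the count table by their Ensembl identifiers, from a list of enzymes of sterol synthesis, proteins that move or esterify sterols and enzymes of lipid synthesis, and all 33 were found among its 12584 genes. By role they comprised 8 enzymes of the mevalonate and squalene steps, 9 enzymes that act on squalene and the sterol ring, the regulator SREBF1, 8 enzymes of fatty acid and glycerolipid metabolism, 6 proteins of sterol esterification, transport and export, and the phospholipase PNPLA7.

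RNA-seq was available for 4 groups of 3 libraries each, 12 in all. A549 and PC9 are established human non-small cell lung cancer lines. A549-HOXC6 and PC9-HOXC6 cells were stably infected with the lentiviral vector pCDH-HOXC6, which drives HOXC6 from the vector and not from its own locus, and A549-NEO and PC9-NEO cells carried the empty vector pCDH-NEO. All 4 groups were selected in neomycin medium. A549 was grown in RPMI 1640 and PC9 in DMEM with fetal bovine serum, so that cell line and medium cannot be told apart in any comparison between the lines. The labels call the 3 replicates of a group independent, without saying whether they were separate infections, so that p-values measure the spread between these libraries only. HOXC6 itself was not analysed here, so the labels could not be checked on it. The epithelial genes KRT18, KRT7 and CDH1 were detected in all 12 libraries, EPCAM averaged 5.76 CPM in A549-NEO and 196 CPM in PC9-NEO, and the lung lineage genes NKX2-1 and SFTPB lay near 0. Of the fibroblast, leukocyte and endothelial markers in the table, COL1A1 and CD68 were detected in all 4 groups and the defining markers COL1A2, DCN, LUM, PTPRC and VWF were at or near 0. PTPRC, VWF and KDR had 4, 4 and 6 counts in A549-HOXC6 replicate 3 and 0 in the other A549 libraries. In A549-HOXC6 in comparison to A549-NEO, CD68 was higher by 0.99 on the log2 scale (1.98-fold, edgeR adjusted p = 0.00443), KRT18 by 0.58 and KRT7 by 0.29, and CDH1 was lower (-0.43). In PC9-HOXC6, CDH1 was higher by 0.30 and EPCAM lower (-0.33). The part of these markers in the results was not tested.

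Cholesterol is made from acetyl-CoA through mevalonate, the isoprenoid farnesyl diphosphate, squalene and a series of sterol intermediates. Fatty acids are built from the cytosolic acetyl-CoA that ATP citrate lyase supplies, desaturated by SCD, FADS1 and FADS2, elongated, and activated to acyl-CoA before they enter membranes or lipid droplets. Both branches are controlled by the SREBP transcription factors, which respond to sterol depletion, whereas the export of surplus cholesterol through ABC transporters is induced by the oxysterol receptors called LXR.

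Levels are given as normalized CPM, the counts of a gene relative to the library total after TMM scaling, on one scale for all 12 libraries. Totals per library ran from 1212053 to 3286577 counts over the genes of the table, and 3 counts, taken as the smallest detectable level, equalled 0.915 to 2.57 CPM, which covers counting error only. Differences are log2 fold changes ± SE from edgeR's quasi-likelihood test, with Benjamini-Hochberg adjustment over all genes tested. Those of HOXC6 against NEO came from fits within each line, and those between the lines from one model of 12 libraries. The SE was derived as the absolute log2 fold change over the square root of the test's F statistic. Calls rest on an adjusted p below 0.05, and the fold criterion adds a log2 change above 1 or below -1. The replicates of a group had pairwise chi-square values per degree of freedom of 1.58 to 4.26, where counting error alone gives about 1, and A549-HOXC6 replicate 3 stood most apart. Without that library, 8 of the 33 genes were called higher and 8 lower in A549, with MVD in the place of LPIN1 among the lower. Over all genes, the fits that left out any A549 library in turn called 1251 to 1566 higher and 1442 to 1702 lower, against 1657 and 1812 with every library.

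In A549 all 33 genes passed the low-count filter, and 8 were upregulated and 8 downregulated in A549-HOXC6 in comparison to A549-NEO, where 18.9% of 8771 genes tested were upregulated and 20.7% downregulated. The genes that rose were ACLY, FADS1, FADS2, FDPS, PMVK, EBP, TM7SF2 and SREBF1, and those that fell were SCD, ACSL3, ACSL4, LPIN1, IDI1, NPC1, STARD4 and ABCA5. ABCA5 and ACSL4 were the 2 genes that also met the fold criterion, with a background of 5.51% in that direction. None of the genes that rose met it by edgeR at an adjusted p under 0.05 (0 of 33, background 1.7%). None met it by DESeq2 or at an unadjusted p under 0.05 either, rules for which no background is given. All 3 HOXC6 libraries lay above all NEO libraries for 9 of the 33 genes (26.8% of all genes) and below for 10 (23.6%). The median log2 change of the 33 genes was -0.20, and that of all genes tested was -0.000467. In bulk RNA-seq, fewer cells that express a gene and less of its RNA per cell cannot be told apart.

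In PC9, 31 of the 33 genes passed the filter, STARD4 and ABCA5 being too low to test. Here 2 genes were upregulated, ABCG1 and PNPLA7, and 11 were downregulated, where 13.3% of 8419 genes tested were upregulated and 14.2% downregulated. The genes that fell were the mevalonate and squalene enzymes ACAT2, HMGCS1, FDPS and FDFT1, the sterol enzyme SC5D, the fatty acid enzymes SCD, FADS1, FADS2, ACSL3 and ACSL4, and the cholesterol exporter ABCA1. PNPLA7 met the fold criterion upward (background 0.962%) and SC5D downward (background 3.56%). The HOXC6 libraries lay above all NEO libraries for 2 genes (19.5% of all genes) and below for 13 (20.4%). The median log2 change of the 31 genes was -0.21, with -0.00463 for all genes tested.

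The lines were also compared directly. ACSL3, ACSL4 and SCD fell in both lines, 3 of the 31 genes tested in both (9.68%) against 8.32% of all 7954 genes tested in both. FADS1, FADS2 and FDPS rose in A549 and fell in PC9, again 3 of 31, against 1.16% of all genes. No gene rose in both lines or fell in A549 and rose in PC9 by edgeR at an adjusted p under 0.05 (0 of 31, backgrounds 3.62% and 1.56%). None did so at an unadjusted p under 0.05 or by DESeq2 either, rules for which no background is given. By DESeq2, FADS1 and FADS2 kept opposite calls in the 2 lines and FDPS did not, as it missed the threshold in PC9.

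**Figure D1:**
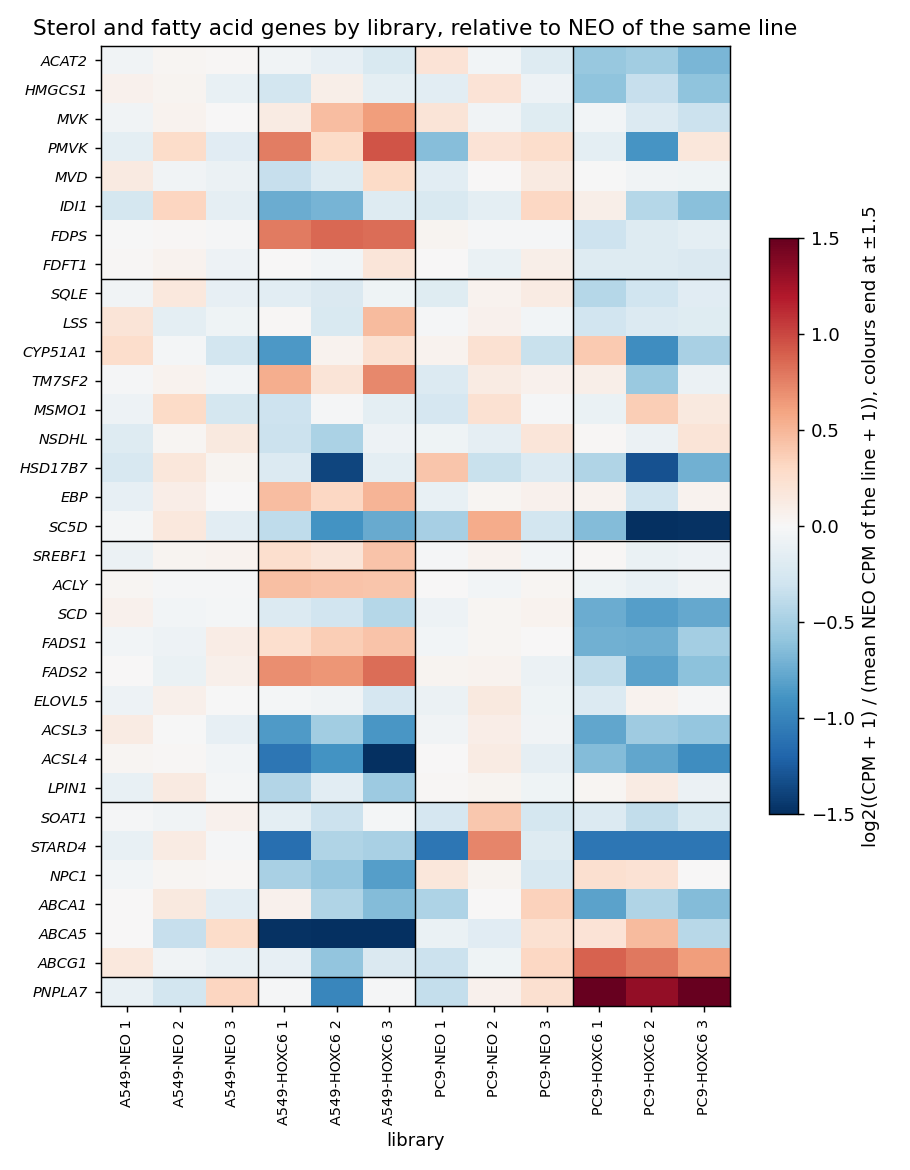
Level of each of the 33 genes (rows, ordered by role) in each of the 12 libraries (columns), as log2((CPM + 1) / (mean NEO CPM of the same line + 1)), with the colour scale ending at 1.5 in each direction. FADS1, FADS2 and FDPS lie above the NEO mean in all 3 A549-HOXC6 libraries and below it in all 3 PC9-HOXC6 libraries, whereas SCD, ACSL3 and ACSL4 lie below it in all 6 HOXC6 libraries.

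**Figure D2:**
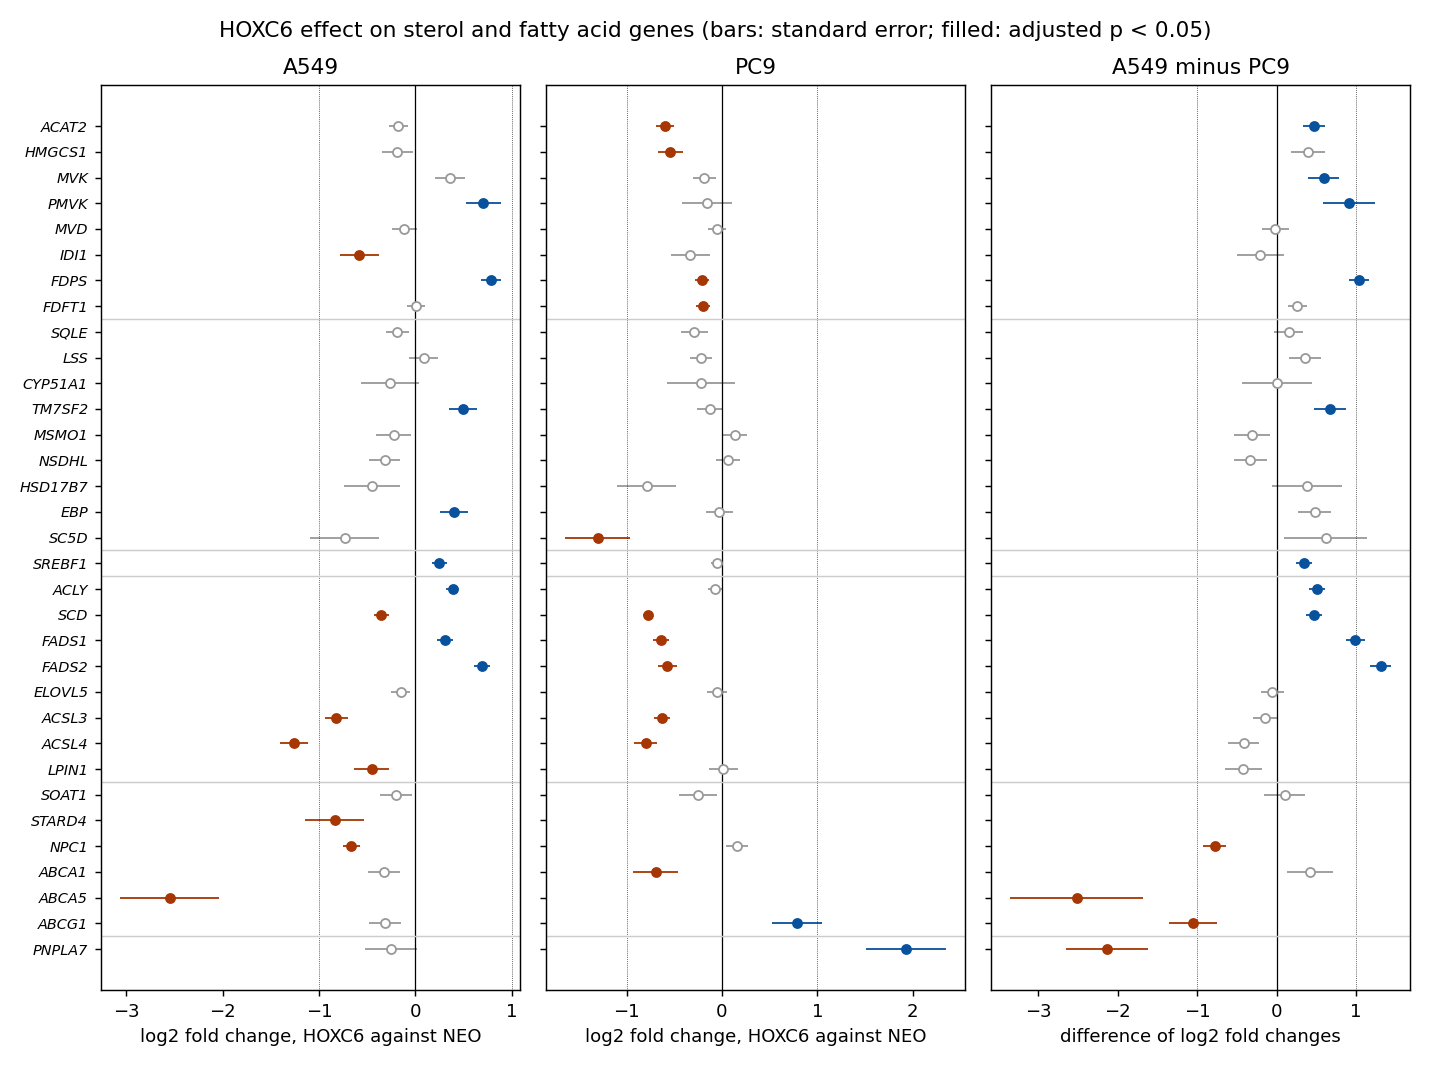
Log2 fold change of HOXC6 against NEO ± SE for each gene in A549 (left) and PC9 (middle), and the difference of both changes (right, A549 minus PC9). Filled points passed an adjusted p under 0.05 (blue higher, brown lower) and dotted lines mark the fold criterion, STARD4 and ABCA5 have no PC9 value because they were not tested there, and the STARD4 difference is left out because PC9-HOXC6 had no counts.

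Changes of opposite sign in the 2 lines were found for the front-end fatty acid desaturases. FADS1 (ENSG00000149485, GRCh37 chromosome 11, 61567099 to 61596790, reverse strand) and FADS2 (ENSG00000134824, chromosome 11, 61560452 to 61634826, forward strand) encode these enzymes, which make arachidonic and related polyunsaturated acids. The promoters of these 2 neighbouring genes are shown together with those of FDPS and SCD, because these 4 genes were called in both lines and in the interaction. The windows run from 250 bases before to 50 after a RefSeq transcript start (GRCh38.p14, not the build of the counts), 5′ to 3′ on the strand of the gene, with matches to the motifs CCAAT or TAATTA on either strand in capitals.
FADS1, chr11:61816954-61817253, reverse strand: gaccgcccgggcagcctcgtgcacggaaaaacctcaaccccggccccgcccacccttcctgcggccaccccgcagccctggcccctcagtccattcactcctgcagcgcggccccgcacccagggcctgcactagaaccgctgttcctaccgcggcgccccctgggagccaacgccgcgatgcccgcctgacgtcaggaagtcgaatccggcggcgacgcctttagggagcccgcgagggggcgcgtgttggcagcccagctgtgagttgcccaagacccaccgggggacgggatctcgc
FADS2, chr11:61816154-61816453, forward strand: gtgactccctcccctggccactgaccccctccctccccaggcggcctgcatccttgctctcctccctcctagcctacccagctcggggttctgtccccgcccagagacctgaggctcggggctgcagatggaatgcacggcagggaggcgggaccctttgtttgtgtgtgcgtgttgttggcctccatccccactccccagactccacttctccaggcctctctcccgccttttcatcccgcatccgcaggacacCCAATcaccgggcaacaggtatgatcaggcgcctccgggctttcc
FDPS, chr1:155308616-155308915, forward strand: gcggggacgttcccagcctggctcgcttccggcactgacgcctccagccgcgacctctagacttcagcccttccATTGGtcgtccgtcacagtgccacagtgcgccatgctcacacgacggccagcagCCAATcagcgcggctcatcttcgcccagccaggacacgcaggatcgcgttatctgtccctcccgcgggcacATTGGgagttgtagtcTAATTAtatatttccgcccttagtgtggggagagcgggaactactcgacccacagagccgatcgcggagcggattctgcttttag
SCD, chr10:100346983-100347282, forward strand: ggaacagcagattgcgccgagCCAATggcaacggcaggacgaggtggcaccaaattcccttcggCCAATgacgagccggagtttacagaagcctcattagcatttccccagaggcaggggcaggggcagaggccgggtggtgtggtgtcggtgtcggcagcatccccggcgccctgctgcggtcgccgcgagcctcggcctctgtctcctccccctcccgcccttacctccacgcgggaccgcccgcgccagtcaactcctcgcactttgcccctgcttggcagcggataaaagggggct
The motif CCAAT, bound by NF-Y, lies 3 times in the FDPS window (on either strand), 2 times in that of SCD, once in that of FADS2 and not in that of FADS1. FADS2 has 2 windows, of which the one that holds CCAAT is shown. FDPS also holds TAATTA, a core bound by many homeodomain proteins, from 35 to 30 bases before the start. Windows were found for 28 of the 33 genes, 36 windows in all, of which 22 held CCAAT (61.1%, against 34.6% of all 35116 RefSeq windows of the same length), 5 held the E-box CACGTG (13.9% against 7.26%) and 1 held TAATTA (2.78% against 4.84%). The SREBP motif searched, TCACNCCAC, was in none of the 36 and in 1.13% of all windows. Both strands were searched, no match overlapped another in the 4 windows shown, and a match describes letters and not a site in use.

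FADS1 stood at 465, 454 and 515 CPM in the 3 A549-NEO libraries and at 568, 619.8 and 644 CPM in the A549-HOXC6 libraries. All 3 HOXC6 libraries lay above all NEO libraries, by a log2 change of 0.31 ± 0.08 (1.24-fold, adjusted p = 0.0035). In PC9-NEO the FADS1 level was 257, 272 and 267 CPM and in PC9-HOXC6 it was 161, 159 and 186 CPM. Here the groups were separate in the opposite direction, with a log2 change of -0.64 ± 0.08 (1.56-fold lower, adjusted p = 6.25e-07). FADS2 levels were 338, 313 and 354 CPM in A549-NEO and 543, 531 and 602 CPM in A549-HOXC6. Its rise in A549 was larger than that of FADS1, at 0.69 ± 0.08 (1.62-fold, adjusted p = 2.05e-07), without overlap between the groups. In PC9, FADS2 stood at 188, 189.8 and 172 CPM with the empty vector and at 142, 105 and 119 CPM with HOXC6, all below the NEO libraries (log2 change -0.57 ± 0.10, adjusted p = 4.48e-05). The test of the difference between the lines gave 0.99 ± 0.12 for FADS1 (adjusted p = 5.39e-08) and 1.31 ± 0.13 for FADS2 (adjusted p = 9.58e-10). FADS1 and FADS2 lie on opposite strands and share 490 bp of annotated exon. Their canonical transcripts share 0, but that of FADS1 overlaps FADS2 exons over 142 bp and that of FADS2 overlaps FADS1 exons over 148 bp. The FADS1 to FADS2 count ratio was 1.43 on average in A549-NEO and 1.09 in A549-HOXC6.

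SCD (ENSG00000099194, chromosome 10, 102106990 to 102124583, forward strand) introduces the first unsaturation into stearoyl- and palmitoyl-CoA. Per kb of transcript its level was the highest of the 33 genes in PC9-NEO. It stood at 1639.8, 1759 and 1794 CPM in PC9-NEO and at 1034, 972 and 1017 CPM in PC9-HOXC6. The PC9 groups were far apart, and the log2 change of -0.78 ± 0.06 (1.71-fold lower, adjusted p = 1.38e-11) had the smallest adjusted p of the 33 genes in either line. In A549 the SCD levels were 792, 737 and 743 CPM in NEO and 654, 618 and 561 CPM in HOXC6 libraries. That change was smaller, at -0.35 ± 0.08 (adjusted p = 8.99e-04), again without overlap, and the difference between the lines was 0.47 ± 0.10 (adjusted p = 5.28e-04).

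ACLY, which cleaves citrate to cytosolic acetyl-CoA and so supplies both branches, moved in A549. Its level was 843, 819.6 and 820.4 CPM in A549-NEO and 1133, 1112 and 1106 CPM in A549-HOXC6, a log2 change of 0.39 ± 0.07 (1.31-fold, adjusted p = 7.28e-05). The NEO and HOXC6 libraries did not overlap. In PC9 the levels were 316, 305 and 321 CPM in NEO and 300.0, 291 and 302 CPM in HOXC6 libraries, which were lower throughout but not called (log2 change -0.07 ± 0.07, adjusted p = 0.475). The lines differed by 0.51 ± 0.10 (adjusted p = 2.63e-04).

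The long-chain acyl-CoA synthetases ACSL3 and ACSL4, which activate fatty acids, fell in both lines. ACSL3, an enzyme of lipid droplet formation, stood at 152, 139 and 128 CPM in A549-NEO and 77.1, 96.7 and 75.99 CPM in A549-HOXC6. In PC9 it stood at 273, 303 and 274 CPM in NEO and 164, 196 and 189.7 CPM in HOXC6 libraries. No HOXC6 library reached the lowest NEO library of its line, and the log2 changes were -0.82 ± 0.12 in A549 and -0.63 ± 0.08 in PC9 (adjusted p = 4.40e-06 and 9.45e-07). ACSL4 prefers arachidonic acid and other polyunsaturated acids. Its level was 109.6, 108 and 104 CPM in A549-NEO against 50.2, 57.4 and 33.2 CPM in A549-HOXC6. The change of -1.26 ± 0.15 (2.39-fold lower, adjusted p = 1.52e-07) met the fold criterion in A549. In PC9, ACSL4 went from 103, 112 and 93.7 CPM to 65.1, 59.7 and 53.4 CPM, a log2 change of -0.80 ± 0.12 (adjusted p = 6.32e-06). The interaction was not called for either synthetase, at -0.15 ± 0.15 for ACSL3 and -0.41 ± 0.19 for ACSL4 (adjusted p = 0.533 and 0.134). Both genes have low GC content, with 37.4% in the ACSL3 and 36.4% in the ACSL4 transcript. When smooth trends of each library on GC and transcript length were removed, here called the GC and length correction, the ACSL3 calls were lost in both lines (log2 change -0.20 and -0.14, adjusted p = 0.16 and 0.227) and the ACSL4 call was lost in PC9 (-0.26, adjusted p = 0.116), while in A549 ACSL4 stayed called at -0.62 (adjusted p = 1.58e-04).

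Of the other 2 enzymes of this class, LPIN1 was called in A549 and ELOVL5 in neither line. ELOVL5, an elongase of polyunsaturated acids, differed by -0.15 ± 0.10 in A549 and -0.05 ± 0.11 in PC9 (adjusted p = 0.234 and 0.764). LPIN1, a phosphatidate phosphatase of triglyceride synthesis, was lower in A549-HOXC6 with a log2 change of -0.45 ± 0.18, close to the threshold (adjusted p = 0.0464), a call that was lost when any of 5 of the 6 libraries was left out (adjusted p up to 0.17), and it differed by 0.01 ± 0.15 in PC9 (adjusted p = 0.961). Summed over the 8 enzymes of the class, the level was 3018 ± 95.2 CPM in PC9-NEO and 1975 ± 39.7 CPM in PC9-HOXC6, of which SCD held 1731 and 1008 CPM. In A549 the sum was 2878 ± 52.1 CPM in NEO and 3237 ± 22.9 CPM in HOXC6 libraries (SD, n = 3). Abundant genes weigh most in these sums. The median log2 change of the class was -0.60 in PC9 and -0.25 in A549. Of the 8 enzymes, 3 were called higher and 4 lower in A549 (18.9% and 20.7% of all genes). In PC9 none was called higher and 5 were called lower (13.3% and 14.2% of all genes).

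**Figure D3:**
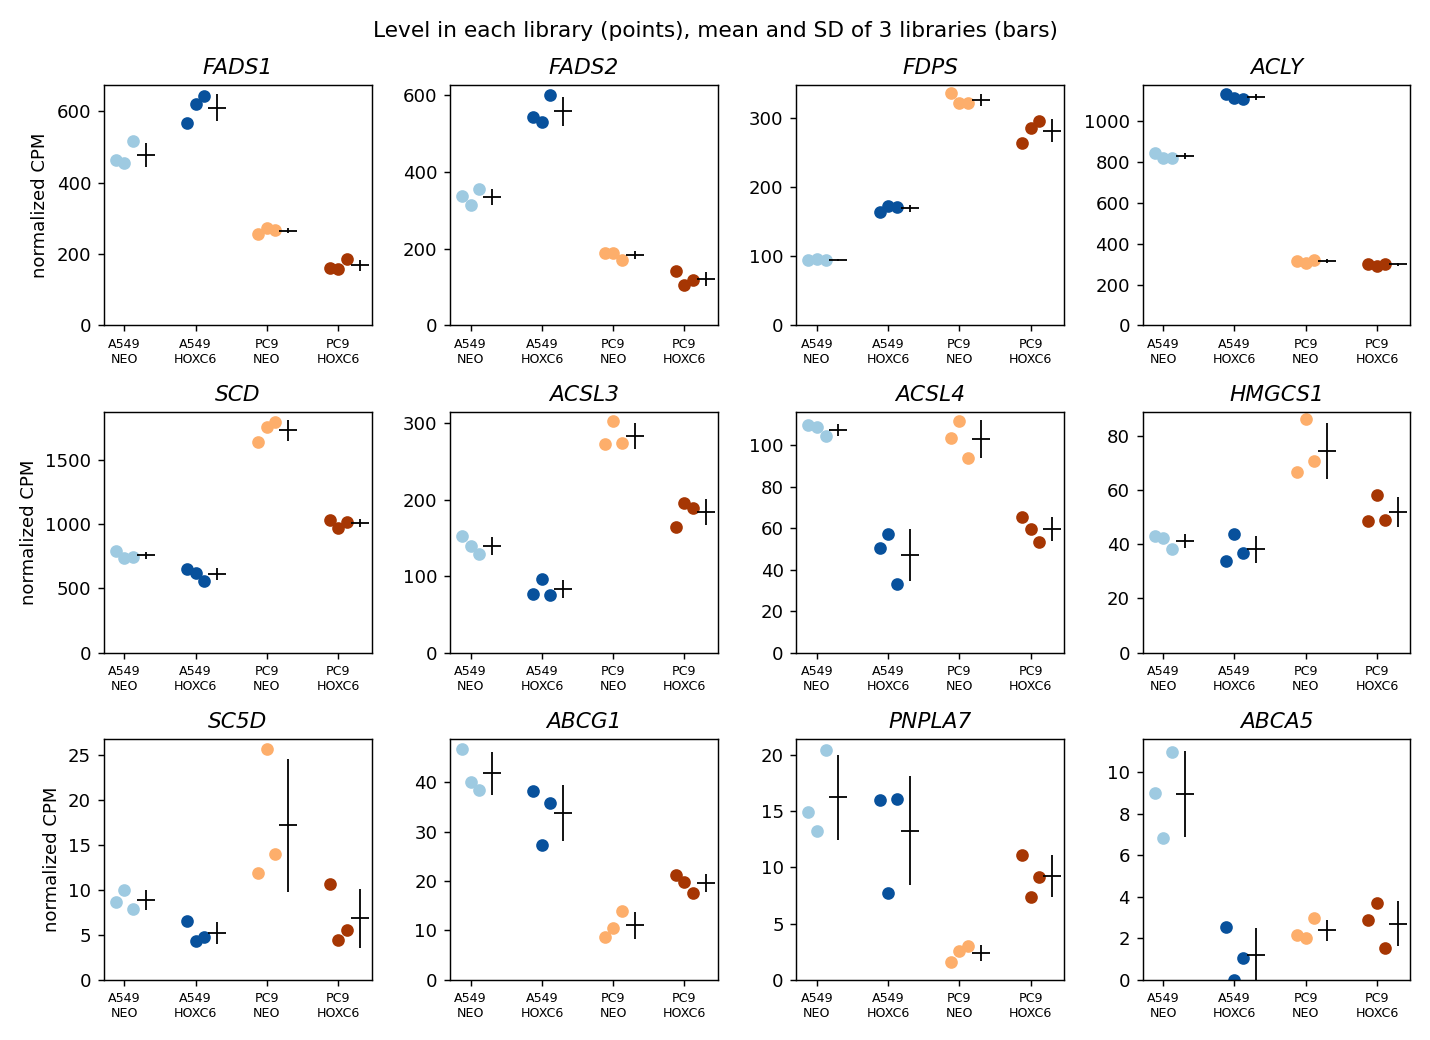
Normalized CPM of 12 of the genes in each library (points, 3 per group) with the mean and SD of the group (bars beside the points), each axis starting at 0. FADS1, FADS2 and FDPS are higher in A549-HOXC6 and lower in PC9-HOXC6 than in the matching NEO libraries, SCD, ACSL3 and ACSL4 are lower in both, and SC5D shows 1 PC9-NEO library at 25.7 CPM apart from the other 2.

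In the mevalonate and squalene steps, 2 of 8 enzymes rose and 1 fell in A549, whereas 4 fell and none rose in PC9 by edgeR, beside shares over all genes of 18.9% higher and 20.7% lower in A549 and 13.3% higher and 14.2% lower in PC9. FDPS (ENSG00000160752, chromosome 1, 155278539 to 155290457, forward strand) makes farnesyl diphosphate, the branch point between sterols and protein prenylation. Its level was 94.7, 96.4 and 93.9 CPM in A549-NEO and 164, 173 and 171 CPM in A549-HOXC6. The HOXC6 libraries lay far above the narrow NEO range, with a log2 change of 0.78 ± 0.10 (1.72-fold, adjusted p = 9.47e-07), the largest rise among the 33 genes in A549. In PC9 the FDPS level was 336, 321 and 322 CPM in NEO and 263, 286 and 296 CPM in HOXC6 libraries. These did not overlap either, but the change of -0.21 ± 0.07 was small (adjusted p = 0.0321) and its call was lost when any of 5 of the 6 PC9 libraries was left out (adjusted p from 0.0536 to 0.191 in those fits) and under DESeq2. The difference between the lines was 1.04 ± 0.13 (adjusted p = 6.16e-08). Over 587 of its 1417 bp the canonical FDPS transcript overlaps exons of RUSC1-AS1 on the opposite strand, 213 bp of it with the canonical RUSC1-AS1 transcript. The part of that overlap in the counts was not tested.

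HMGCS1 makes HMG-CoA, an early intermediate of the mevalonate route, and is a classical SREBP target. It stood at 43.02, 42.2 and 38.1 CPM in A549-NEO and 33.8, 43.7 and 36.9 CPM in A549-HOXC6, overlapping ranges with a log2 change of -0.19 ± 0.16 (adjusted p = 0.386). In PC9 it fell from 66.5, 86.1 and 70.8 CPM to 48.7, 58.3 and 48.8 CPM without overlap (log2 change -0.54 ± 0.13, adjusted p = 0.0028). The HMGCS1 transcript has 39.0% GC, and after the GC and length correction the change was 0.35 in A549, of the other sign, and -0.14 in PC9 (adjusted p = 0.0958 and 0.499). The interaction of 0.40 ± 0.21 was not called (adjusted p = 0.197).

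ACAT2, the cytosolic thiolase that joins acetyl-CoA units at the entry of the pathway, fell in PC9. Its level was 242, 203 and 183 CPM in PC9-NEO and 141, 146 and 129.6 CPM in PC9-HOXC6, without overlap (log2 change -0.60 ± 0.10, adjusted p = 1.94e-05). In A549 the libraries held 206, 218 and 216 CPM and 205, 196 and 182 CPM, also separate, but the difference of -0.17 ± 0.09 was not called (adjusted p = 0.146). The canonical ACAT2 transcript overlaps TCP1 on the opposite strand over 454 bp, and TCP1 changed by -0.48 in PC9 and -0.43 in A549. The interaction of ACAT2, 0.47 ± 0.14 (adjusted p = 0.0134), was lost without PC9-NEO replicate 1 (adjusted p = 0.0763) or PC9-HOXC6 replicate 3 (adjusted p = 0.056).

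MVK phosphorylates mevalonate, and PMVK phosphorylates its product. PMVK rose in A549 from 24.3, 32.9 and 23.97 CPM to 46.9, 33.4 and 52.98 CPM (log2 change 0.71 ± 0.18, adjusted p = 0.00329). The highest NEO library and the lowest HOXC6 library nearly met. For MVK the change in A549 was 0.36 ± 0.15 and missed the threshold (adjusted p = 0.0643), although its groups did not overlap. Neither kinase was called in PC9, with -0.16 for PMVK and -0.19 for MVK (adjusted p = 0.699 and 0.261). IDI1, the isopentenyl diphosphate isomerase, was lower in A549-HOXC6 with a log2 change of -0.58 ± 0.20 (adjusted p = 0.0236), with overlapping groups and -0.08 after the GC and length correction (adjusted p = 0.813). FDFT1, squalene synthase, was not called in A549 (0.01 ± 0.09, adjusted p = 0.939) and was lower in PC9-HOXC6, with a log2 change of -0.20 ± 0.07 (adjusted p = 0.0327), a call lost without any of 5 of the 6 libraries (adjusted p up to 0.168). MVD, the mevalonate diphosphate decarboxylase, had log2 changes of -0.12 in A549 and -0.05 in PC9 and was not called. Summed over the 8 enzymes, the PC9 level was 1252 ± 25.2 CPM with the empty vector and 1043 ± 10 CPM with HOXC6, and the A549 level was 778 ± 26 CPM and 854 ± 54.8 CPM (SD, n = 3).

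Among the 9 enzymes that act on squalene and the sterol ring, 2 rose in A549, EBP and TM7SF2 (18.9% of all genes), and 1 fell in PC9, SC5D (14.2% of all genes), shares of the class near those of all genes. SQLE, the squalene epoxidase that commits squalene to sterols, stood at 95.1, 110.1 and 89.97 CPM in A549-NEO and 87.7, 84.7 and 94.2 CPM in A549-HOXC6. It stood at 50.3, 59.4 and 62.3 CPM in PC9-NEO and 42.5, 46.5 and 50.9 CPM in PC9-HOXC6. The HOXC6 means were below the NEO means in both lines with ranges that overlapped, and the changes of -0.19 ± 0.12 and -0.29 ± 0.14 were not called (adjusted p = 0.216 and 0.127). SC5D, a late desaturase of the sterol ring, was a low gene with 11.9, 25.7 and 14 CPM in PC9-NEO and 10.6, 4.42 and 5.49 CPM in PC9-HOXC6. Its change of -1.31 ± 0.34 (2.47-fold lower, adjusted p = 0.00422) met the fold criterion, and 1 NEO library was well above the rest. Without that library, PC9-NEO replicate 2, the change was -0.91 and the call was lost (adjusted p = 0.0873), as it was without PC9-HOXC6 replicate 3 (adjusted p = 0.054) and after the GC and length correction (-0.76, adjusted p = 0.118). In A549, SC5D went from 8.67, 10.04 and 7.86 CPM to 6.55, 4.28 and 4.82 CPM, which was not called (log2 change -0.73 ± 0.36, adjusted p = 0.103).

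TM7SF2, a sterol reductase, rose in A549 from 46.5, 48.6 and 45.6 CPM to 69.1, 53.9 and 78.1 CPM (log2 change 0.49 ± 0.14, adjusted p = 0.00741). EBP, the sterol isomerase, rose from 39.2, 45.8 and 42.8 CPM to 58.95, 53.1 and 61.01 CPM (log2 change 0.41 ± 0.15, adjusted p = 0.0276). The groups did not overlap for either gene. Both have GC-rich transcripts, 62.4% and 54.0%, and both calls were lost with the GC and length correction (0.25 and 0.14, adjusted p = 0.155 and 0.474). The EBP call was also lost without A549-NEO replicate 1, A549-NEO replicate 3 or A549-HOXC6 replicate 1 (adjusted p from 0.0667 to 0.137). The remaining 5, LSS, CYP51A1, MSMO1, NSDHL and HSD17B7, were called in neither line, with log2 changes from -0.45 (HSD17B7) to 0.09 (LSS) in A549 and from -0.79 (HSD17B7) to 0.13 (MSMO1) in PC9. CYP51A1 and HSD17B7 were low, between 4.42 and 19.5 CPM over all libraries. HSD17B7 and LSS lay lower in all 3 PC9-HOXC6 libraries than in all PC9-NEO libraries without being called (adjusted p = 0.0595 and 0.159).

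SREBF1, which encodes the SREBP that favours fatty acid genes, ranged from 591 to 848 CPM over the 12 libraries. It stood at 591, 645 and 651 CPM in A549-NEO and 747, 714 and 848 CPM in A549-HOXC6, and the HOXC6 libraries were all above the NEO libraries (log2 change 0.25 ± 0.08, adjusted p = 0.0126). In PC9 it stood at 635, 665 and 627 CPM in NEO and 652, 597 and 609.7 CPM in HOXC6 libraries, which overlapped and were not called apart (-0.05 ± 0.06, adjusted p = 0.602). The A549 call was lost without A549-NEO replicate 1 (adjusted p = 0.123) and after the GC and length correction (0.13, adjusted p = 0.0783). The difference between the lines, 0.34 ± 0.11 (adjusted p = 0.0177), was 0.38 after that correction (adjusted p = 5.45e-04) and was lost without A549-NEO replicate 1 (adjusted p = 0.0749) or PC9-NEO replicate 2 (adjusted p = 0.0544). RAI1, which overlaps the canonical SREBF1 transcript over 120 bp on the opposite strand, was higher by 0.47 in A549-HOXC6 (adjusted p = 1.86e-04), and its part in the SREBF1 counts was not tested.

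Of the 6 genes of sterol esterification, transport and export, 3 fell and none rose in A549 (20.7% and 18.9% of all genes), and 1 rose and 1 fell among the 4 tested in PC9 (13.3% and 14.2% of all genes). NPC1, the lysosomal protein that releases LDL-derived cholesterol, had the highest level of them per kb of transcript in both NEO groups. It stood at 624, 657 and 651 CPM in A549-NEO and 459.6, 431 and 361 CPM in A549-HOXC6, with no overlap (log2 change -0.67 ± 0.09, 1.59-fold lower, adjusted p = 1.12e-06). In PC9 its level was 101, 92.1 and 75.5 CPM with the empty vector and 106, 104 and 90.3 CPM with HOXC6, ranges that overlapped (0.15 ± 0.12, adjusted p = 0.341). The lines differed in the change by -0.78 ± 0.15 (adjusted p = 1.21e-04). The canonical NPC1 transcript shares 198 bp with exons of RMC1 on the opposite strand. RMC1 moved by -0.35 in A549 and 0.45 in PC9, and differed between the lines by -0.76, and NPC1 held 2.96 times the RMC1 count on average in A549-NEO and 3.02 times in PC9-NEO. The part of RMC1 in the NPC1 counts was not tested.

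The cholesterol exporters of the ABC family differed from each other. ABCA1, which loads cholesterol onto apolipoprotein A-I, stood at 60.4, 66.7 and 53.8 CPM in A549-NEO and 62.95, 43.7 and 37.99 CPM in A549-HOXC6, overlapping and not called (-0.32 ± 0.16, adjusted p = 0.122). In PC9 it went from 16.8, 23.7 and 30.1 CPM to 13.02, 16.96 and 14.6 CPM. This change of -0.70 ± 0.24 was called (adjusted p = 0.0293) although the lowest NEO library lay just below the highest HOXC6 library. The call was lost without PC9-NEO replicate 2 or 3 or PC9-HOXC6 replicate 1 or 3 (adjusted p from 0.0715 to 0.233). It was also lost under DESeq2 and after the GC and length correction. ABCG1, which exports cholesterol to HDL, moved in PC9 from 8.65, 10.6 and 14 CPM to 21.2, 19.9 and 17.7 CPM, all HOXC6 libraries above all NEO libraries (0.79 ± 0.26, adjusted p = 0.0215). That call was lost without PC9-NEO replicate 1 or 2 or PC9-HOXC6 replicate 1 (adjusted p from 0.0679 to 0.0899), after the GC and length correction (adjusted p = 0.081) and under DESeq2. In A549, ABCG1 was 46.8, 40.2 and 38.5 CPM in NEO and 38.2, 27.4 and 35.9 CPM in HOXC6 libraries, lower throughout but not called (-0.32 ± 0.17, adjusted p = 0.139). The difference between the lines was -1.05 ± 0.30 and passed the test (adjusted p = 0.0093).

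ABCA5, a lysosomal member of the same family, was near the floor of detection. It stood at 9.02, 6.83 and 11 CPM in A549-NEO and 2.55, 0 and 1.07 CPM in A549-HOXC6, all below the NEO libraries, from 26, 17 and 28 counts against 7, 0 and 2 counts (log2 change -2.55 ± 0.51, adjusted p = 2.74e-04). ABCA5 passed the low-count filter in A549 through the NEO libraries alone. In PC9 it stood at 2.16, 2.01 and 2.97 CPM in NEO and 2.89, 3.69 and 1.52 CPM in HOXC6 libraries, too low for a test within the line. The difference between the lines was -2.52 ± 0.83 (adjusted p = 0.028), and it missed the threshold when any of 7 of the 12 libraries was left out (adjusted p up to 0.0838). STARD4, a carrier of sterol between membranes, went from 12.1, 14.5 and 12.97 CPM to 5.46, 9.42 and 9.10 CPM in A549 (-0.84 ± 0.31, adjusted p = 0.0327), a call lost without any of 4 of the 6 libraries (adjusted p up to 0.211) and after the GC and length correction (-0.10, adjusted p = 0.844). In PC9 it had 0, 2.52 and 0.848 CPM in NEO libraries (0, 5 and 2 counts) and no counts in HOXC6 libraries, too few for a fold. SOAT1, which esterifies cholesterol for storage, was called in neither line (-0.20 ± 0.16 and -0.25 ± 0.20, adjusted p = 0.348 and 0.373). Summed over the 6 genes, the A549 level was 807 ± 15.7 CPM with the empty vector and 543 ± 60.2 CPM with HOXC6, most of it NPC1, and the PC9 level was 157 ± 11.8 CPM and 162 ± 10.7 CPM (SD, n = 3).

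PNPLA7, a lysophospholipase of the patatin-like family, showed the largest rise among the 33 genes in PC9. Its level was 1.62, 2.52 and 2.97 CPM in PC9-NEO, near the floor, and 11.1, 7.37 and 9.15 CPM in PC9-HOXC6. In PC9 it passed the low-count filter through the HOXC6 libraries alone (23, 10 and 30 counts, against 3, 5 and 7 with NEO). At its NEO level it could be tested in PC9 only if it rose. No HOXC6 library overlapped the NEO libraries, and the log2 change was 1.93 ± 0.42 (3.81-fold, adjusted p = 8.53e-04), or 1.75 after the GC and length correction (adjusted p = 0.00343). In A549 it stood at 14.9, 13.3 and 20.4 CPM in NEO and 16.01, 7.70 and 16.1 CPM in HOXC6 libraries, which overlapped (-0.25 ± 0.27, adjusted p = 0.491). The PC9-HOXC6 level stayed below the A549-NEO level in every library. The difference between the lines was -2.14 ± 0.51 (adjusted p = 0.00218).

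Counted over the list, the interaction test called 14 of 33 genes. The change was higher in A549 than in PC9 for 10 (background 10.9% of 9229 genes tested) and lower for 4 (background 8.44%). The 10 were ACAT2, MVK, PMVK, FDPS, TM7SF2, SREBF1, ACLY, SCD, FADS1 and FADS2, and the 4 were NPC1, ABCA5, ABCG1 and PNPLA7. FADS2 and FDPS met the fold criterion upward (background 2.76%), and ABCA5, ABCG1 and PNPLA7 met it downward (background 2.38%). The median difference over the 33 genes was 0.34 on the log2 scale, with 0.05 for all genes. All 4 enzymes called in the fatty acid class and all 4 called in the mevalonate and squalene class lay on the side of A549. Without A549-HOXC6 replicate 3, the counts were 8 and 3, and MVK, PMVK and ABCA5 missed the threshold (adjusted p = 0.116, 0.0903 and 0.0564). Over all genes, the fits that left out any library in turn called 834 to 1019 higher and 618 to 816 lower, against 1010 and 779 with every library.

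Many of the 33 genes also differed between the lines with the empty vector. In A549-NEO in comparison to PC9-NEO, 12 of the 33 genes were higher and 11 lower, where 34.6% of all genes were higher and 36.4% lower. With the fold criterion, 7 were higher (19.3% of all genes) and 5 lower (17.5%). All 6 genes of sterol esterification, transport and export were higher in A549-NEO, from 0.39 for SOAT1, which missed the threshold without 7 of the 12 libraries in turn (adjusted p up to 0.237), to 3.48 for STARD4, which had 0, 5 and 2 counts in PC9-NEO, with NPC1 at 2.85 ± 0.10 (adjusted p = 1.70e-26). ACLY (1.40 ± 0.07), ELOVL5 (0.99 ± 0.10), FADS2 (0.87 ± 0.09), FADS1 (0.85 ± 0.08), SQLE (0.77 ± 0.12) and PNPLA7 (2.72 ± 0.38) were also higher in A549-NEO. FDPS was the lowest relative to PC9-NEO, at -1.78 ± 0.09 (adjusted p = 3.22e-21), and SCD (-1.19), MSMO1 (-1.06), MVK (-1.04), ACSL3 (-1.02), TM7SF2 (-0.97), SC5D (-0.95), HMGCS1 (-0.85), FDFT1 (-0.83), NSDHL (-0.43) and LSS (-0.37) were lower. The LSS call was lost without A549-NEO replicate 2 or 3 or PC9-NEO replicate 2 (adjusted p up to 0.0831), and that of NSDHL without A549-NEO replicate 1 or PC9-NEO replicate 3 (adjusted p up to 0.078). SC5D stood at -0.55 without PC9-NEO replicate 2, and its call was lost (adjusted p = 0.159). For FDPS, the A549-HOXC6 libraries at 164, 173 and 171 CPM remained below all PC9 libraries. These comparisons share the NEO libraries with those of HOXC6, and the medium of the lines differed.

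Levels can be compared between genes per kb of the canonical transcript. On that scale SCD ranked highest in PC9-NEO with 330.0 CPM per kb, followed by FDPS with 230.1 and FDFT1 with 182. In A549-NEO, ACLY ranked highest with 193 CPM per kb, before SCD with 144, ACAT2 with 140.3 and NPC1 with 135, and the last 3 lay within 10 CPM per kb of each other. The desaturases FADS1 and FADS2 were at almost one level in each NEO group, 109.5 and 108 CPM per kb in A549-NEO and 60.8 and 59.3 in PC9-NEO. At the other end, ABCA5, SC5D, STARD4 and PNPLA7 were below 4 CPM per kb in both NEO groups.

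**Figure D4:**
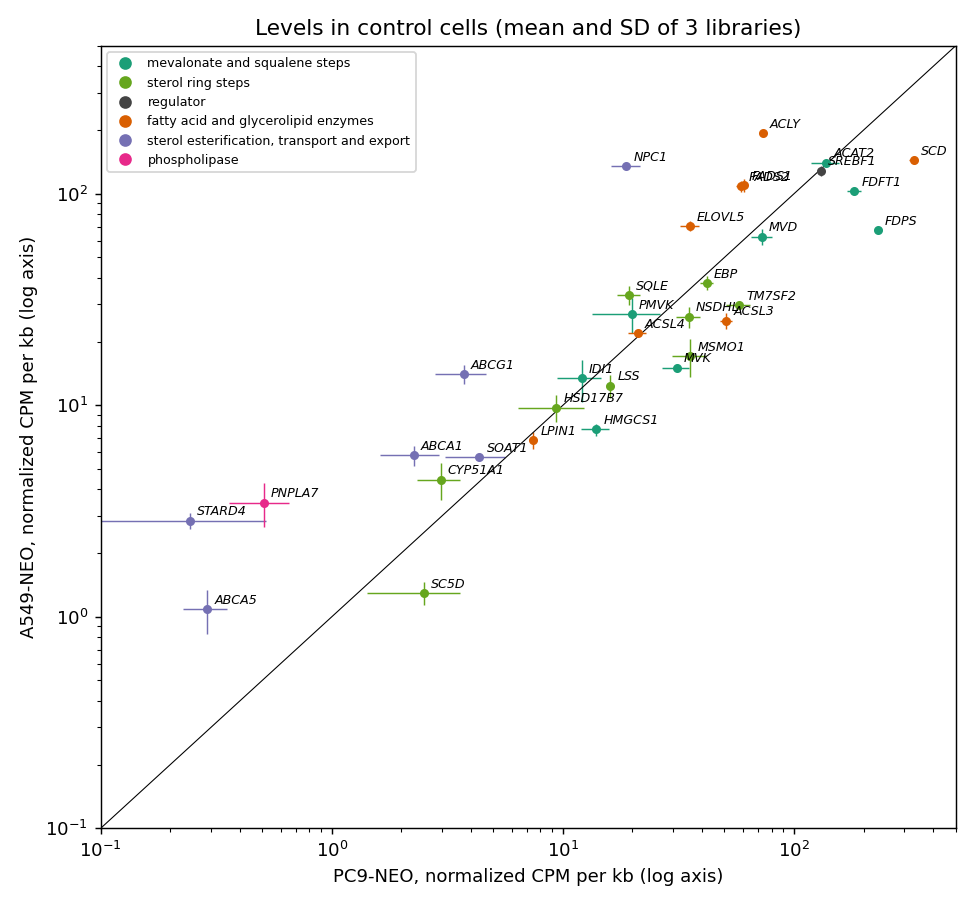
Mean level of the 33 genes in PC9-NEO (x axis) and A549-NEO (y axis), in normalized CPM per kb of canonical transcript on log axes, with SD over 3 libraries and colours by role, and a line of equal levels. The transport genes (purple) lie above the line, NPC1 farthest in absolute level, and FDPS and SCD lie below it. The lower SD bar of STARD4 in PC9-NEO is cut by the axis.

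Other genes of these pathways were counted from a wider list of 75, of which 59 were in the table. In A549, 13 of 54 tested were upregulated and 7 downregulated, and in PC9, 10 of 52 were upregulated and 5 downregulated, beside the backgrounds given above. The median log2 change of the wider list was 0.07 in A549 and 0.15 in PC9. LPIN2, a phosphatidate phosphatase like LPIN1, had log2 changes of 0.27 ± 0.12 in A549 and 0.45 ± 0.19 in PC9 (adjusted p = 0.0646 and 0.0815). PNPLA8, a mitochondrial and peroxisomal phospholipase, and ACADM, a dehydrogenase of fatty acid oxidation, met the fold criterion downward, PNPLA8 in A549 (-1.22 ± 0.26, adjusted p = 5.62e-04) and ACADM in PC9 (-1.01 ± 0.18, adjusted p = 6.63e-05), and both calls were lost after the GC and length correction (adjusted p = 0.0804 and 0.0626).

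The direction of change went with base composition over the whole table. Spearman's rho between the log2 change and the GC content of the canonical transcript, taken over genes that are no independent replicates, was 0.530 over 8712 genes in A549 and 0.527 over 8360 genes in PC9. Over the 33 genes in A549 it was 0.709, and over the 31 in PC9 it was 0.496. The 8 genes that rose in A549 had 49.3 to 63.2% GC and the 8 that fell had 33.2 to 49.1%. With the GC and length correction, rho over all genes came to 0.0245 for A549 and -0.0295 for PC9, and over the sterol and fatty acid genes it was 0.184 and -0.154. Then 6 genes were called higher and 7 lower in A549 (backgrounds 16.2% and 14.7%) and 2 higher and 10 lower in PC9 (10.8% and 9.43%), and the interaction called 9 higher and 4 lower in A549 (10.8% and 10.4%). The genes called with and without the correction were FADS1, FADS2, FDPS, PMVK, ACLY, SCD, ACSL4, NPC1 and ABCA5 in A549, and FADS1, FADS2, FDPS, FDFT1, SCD, ACAT2 and PNPLA7 in PC9. In A549, ELOVL5 turned from -0.15 and was called higher with the correction alone (0.24, adjusted p = 0.0229), and MVD, NSDHL and ABCG1 lower (-0.34, -0.50 and -0.53). ACLY, MVK, LSS and SREBF1 were called lower in PC9 with the correction alone, at -0.19, -0.39, -0.38 and -0.23 (adjusted p = 0.0417, 0.0205, 0.0198 and 0.00518), and MSMO1 was called higher at 0.59 (adjusted p = 9.50e-04). Whether the trend arose in the cells or in library preparation was not tested.

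**Figure D5:**
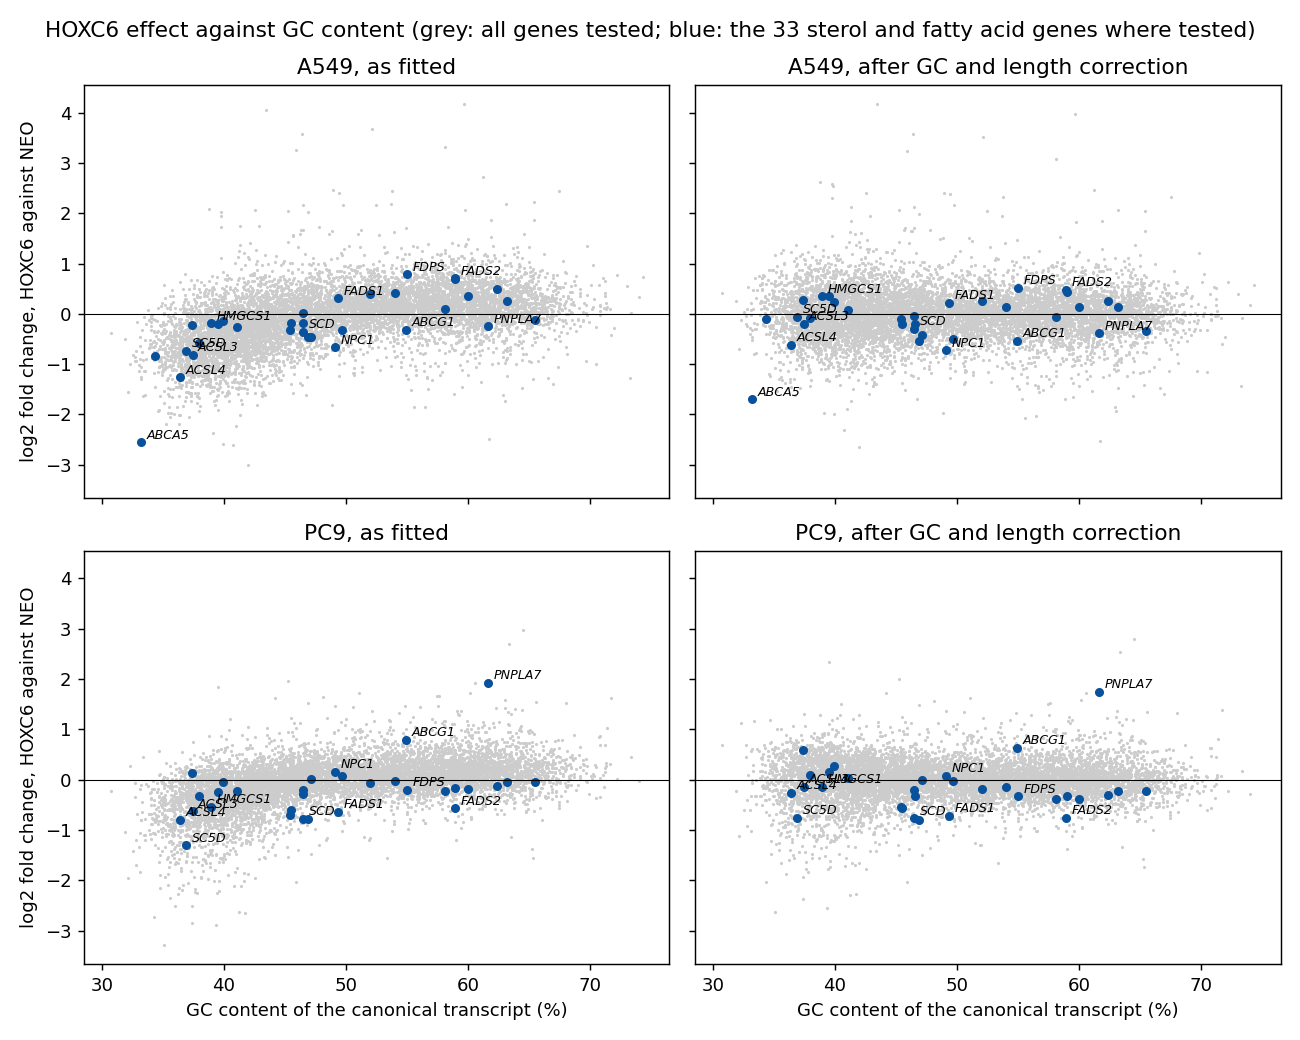
Log2 fold change of HOXC6 against NEO (y axis) by GC content of the canonical transcript in percent (x axis) for all genes tested (grey) and the 33 sterol and fatty acid genes where tested (blue), in A549 (top) and PC9 (bottom), as fitted (left) and after the GC and length correction (right). Genes of low GC content lie mostly below 0 as fitted, and ACSL3 and SC5D move toward 0 with the correction in both lines. HMGCS1 moves toward 0 in PC9 and crosses it in A549 (-0.19 to 0.35). FADS1, FADS2, FDPS and SCD keep their side in both lines.

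The library kit keeps strand, but the strand setting of the counting is not given in the sources used here. In 16 of the 33 genes, exons overlap those of an opposite-strand gene, and for 9 of them the canonical transcripts of both genes overlap. FADS1 and FADS2 are not among the 9, yet the canonical transcript of each overlaps other annotated exons of the opposite gene. BEST1, whose exons overlap those of the abundant ferritin gene FTH1 on the other strand, held 23593 to 41910 CPM across the libraries, with 4.29 times the FTH1 count on average in A549-NEO. FADS1, FADS2, FDPS, ACLY, NPC1, ACAT2, SREBF1 and HMGCS1 have such overlaps, and SCD, ACSL4, PMVK, SQLE, ABCA1, ABCG1, PNPLA7, ABCA5 and SC5D have none. The part of reads from the opposite strand in these counts was not tested.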

How the data were processed

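Poly(A) RNA was made into strand-keeping libraries for paired-end sequencing with a read length of 150 bp. Alignment by the authors used HISAT2 2.1.0 and GRCh37, and the authors made raw read counts per gene with HTSeq 0.9.1, which were deposited as one table. The strand setting of the counting and the annotation release are not given in the sources used here. The table's incomplete last line was left out, and 12584 genes remained, of which 12463 matched GENCODE v44 lifted to GRCh37, the annotation that gave symbols, positions, canonical transcripts, GC content and overlaps.

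Library totals over these genes were 1212053 to 3286577 counts. Counts were tested with edgeR 4.0.16 in R 4.3.3, by filterByExpr, TMM scaling and the quasi-likelihood test on the 6 libraries of each line, with Benjamini-Hochberg adjusted p-values over all genes tested and a threshold of 0.05. The difference between the lines (A549 change minus PC9 change) and A549-NEO against PC9-NEO came from one model of 12 libraries. Alternatives were DESeq2 1.42.0, other scalings and count filters, a stricter threshold, a replicate block, smooth GC and length corrections fitted with mgcv 1.9.3, and fits without each library. The statistics were tested on simulated data. Same-numbered libraries of the groups compared had correlations of -0.0263 to 0.0423 in their deviations from the group means, so the numbers were not taken as pairs.

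The members and lists were chosen with earlier results of these data known. Values per library were given by rule for genes past the fold criterion (a log2 change above 1 or below -1) in a line or in the interaction and, whatever their values, for SQLE, HMGCS1, SREBF1, SCD, ABCA1 and FADS1. Of the wider list the rule named LPIN2 and genes past the fold criterion, and some genes it named are not reported here. Values per library of ACLY, ACSL3, NPC1, ACAT2, PMVK, EBP, TM7SF2 and STARD4 were added after they had been seen.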

Additional observations from a re-analysis of the deposited data

Results flagged for a closer look

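The change on HOXC6 differed between A549 and PC9 by the interaction test of edgeR (adjusted p below 0.05) for 14 of the 33 genes. The difference, A549 minus PC9 on the log2 scale, was 1.31 for FADS2 and 0.99 for FADS1, the front-end desaturases, 0.47 for SCD and 0.51 for ACLY. In sterol synthesis it was 1.04 for FDPS, 0.91 for PMVK, 0.59 for MVK, 0.47 for ACAT2 and 0.68 for TM7SF2, and it was 0.34 for the regulator SREBF1. It was -0.78 for NPC1, -1.05 for ABCG1, -2.52 for ABCA5 and -2.14 for PNPLA7. The differences of MVK, PMVK and ABCA5 each missed the threshold without any of 5, 8 and 7 of the 12 libraries, respectively. The lines were grown in different media, and line and medium cannot be told apart in these differences. With 3 libraries a group, no library was tested for standing apart within its group.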

How the results depend on the processing

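No called change of the 33 genes turned direction under an alternative in which the gene was tested, but changes that were not called did. With the GC and length correction, 7 did so in A549, namely HMGCS1 (-0.19 to 0.35), MSMO1 (-0.22 to 0.28), SOAT1 (-0.20 to 0.35), CYP51A1 (-0.26 to 0.07), ELOVL5 (-0.15 to 0.24, then called), LSS and FDFT1, and 5 did so in PC9, namely ELOVL5 (-0.05 to 0.26), SOAT1 (-0.25 to 0.15), IDI1 (-0.33 to 0.09), CYP51A1 and NSDHL. With the replicate block as well, HMGCS1 in A549 stood at 0.36, and ELOVL5 in PC9 was called at 0.27. Under other alternatives MVD also turned in A549, and PMVK, MVD, TM7SF2, EBP and LPIN1 in PC9. In the interaction 5 genes turned, namely MVD, IDI1, CYP51A1, ELOVL5 and SOAT1. Between the NEO groups 5 turned, namely ACAT2, IDI1, HSD17B7, SREBF1 and ACSL4. Between the NEO groups, SREBF1 went from -0.03 to 0.0030 with DESeq2, 0.0026 with RLE scaling and 0.015 without A549-NEO replicate 1 (from -0.054 to 0.015 over the left-out libraries), and ACSL4 from 0.07 to -0.0077 scaled by library size only, -0.033 with the GC and length correction, -0.036 with the block as well and -0.00020 without PC9-NEO replicate 3 (from -0.00020 to 0.13 over the left-out libraries). Calls held at the same threshold under every alternative in which the gene was tested, left-out libraries included, for 8 of 16 genes in A549 (FDPS, ACLY, SCD, FADS1, FADS2, ACSL4, NPC1 and ABCA5), 5 of 13 in PC9 (ACAT2, SCD, FADS1, FADS2 and PNPLA7), 8 of 14 in the interaction (FDPS, ACLY, SCD, FADS1, FADS2, NPC1, ABCG1 and PNPLA7) and 19 of 23 between the NEO groups. The cause of the shifts that follow was not tested. Each fit was counted afresh, so 1 of 2 sets the count of an alternative beside the count given above, not always for the same genes. With DESeq2, the sterol and fatty acid genes called lower in A549 went from 8 to 5, those called higher in PC9 from 2 to 1, and those past the fold criterion upward in the interaction from 2 to 1, and the count of all genes went from 1123 to 745 higher and 1193 to 775 lower in PC9 and from 1010 to 663 higher in the interaction. RLE scaling also left 1 of 2 past the fold criterion upward in the interaction, and one model of 12 libraries gave 2 in place of 1 past it downward in PC9. With at least 10 counts in every library, fewer genes were tested. ABCA5, PNPLA7 and SC5D were left out of every comparison and STARD4 of those over 12 libraries, so their calls were untested there. Past the fold criterion, A549 then had 1 of 2 lower, PC9 0 of 1 higher and 0 of 1 lower, the interaction 1 of 3 lower and the NEO groups 4 of 7 higher, and PC9 had 1 of 2 called higher and the interaction 2 of 4 called lower. Over all genes this filter left 95 of 149 past the fold criterion upward in A549, 52 of 81 upward and 181 of 300 downward in PC9, 134 of 220 downward in the interaction, and 931 of 1779 upward and 937 of 1612 downward between the NEO groups. The GC and length correction left 1 of 2 past the fold criterion downward in A549, 0 of 1 downward in PC9 and 1 of 2 upward in the interaction. Over all genes it left 171 of 483 past it downward in A549, 120 of 300 downward in PC9, and 794 of 1193 called lower in PC9. At an adjusted p under 0.01, A549 kept 5 of 8 lower, PC9 1 of 2 higher and the interaction 5 of 10 higher. Over all genes, 719 of 1123 were then higher and 782 of 1193 lower in PC9, and 577 of 1010 higher, 421 of 779 lower and 136 of 220 past the fold criterion downward in the interaction.

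The replicate block, in which samples share only a number, gave 8 genes higher and 7 lower in A549, 2 and 12 in PC9, 10 and 4 in the interaction and 12 and 11 between the NEO groups. The shares over all genes with the block alone are not given here. With the GC and length correction as well, 5 genes were called higher in A549 in place of 8. The 5 included ELOVL5 (0.24), which was not among the 8. Past the fold criterion, 1 was downward in A549, 0 downward in PC9 and 1 upward in the interaction, beside 171 and 120 of all genes downward in A549 and PC9. Leaving out each library in turn gave 6 to 8 genes higher and 5 to 8 lower in A549, 1 to 2 higher and 8 to 9 lower in PC9, 7 to 10 higher and 3 to 4 lower in the interaction, and 11 to 12 higher and 9 to 12 lower between the NEO groups. Over all genes these fits called 1251 to 1566 higher and 1442 to 1702 lower in A549, against 1657 and 1812 with every library. In PC9 they called 866 to 1025 and 874 to 1064, against 1123 and 1193. In the interaction they called 834 to 1019 and 618 to 816, against 1010 and 779. Between the NEO groups they called 3042 to 3326 and 3185 to 3477, against 3191 and 3357. Past the fold criterion these fits gave 0 to 0 higher and 2 to 2 lower in A549, 1 to 2 higher and 0 to 1 lower in PC9, 1 to 4 higher and 1 to 3 lower in the interaction, and 7 to 8 higher and 3 to 6 lower between the NEO groups. Over all genes, 129 to 183 were past it upward and 396 to 634 downward in A549, and 78 to 109 and 267 to 315 in PC9. The ranges were 227 to 289 and 192 to 262 in the interaction, and 1784 to 1840 and 1597 to 1688 between the NEO groups. Low counts limit STARD4, ABCA5, SC5D and PNPLA7 most, since 3 counts equal 0.915 to 2.57 CPM, and the untested opposite-strand overlaps touch 16 of the 33 genes.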
